A study of Mus musculus with 12 samples.

Results

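The data describe 8 genes whose enzymes move nitrogen between glutamine, glutamate, asparagine and the branched-chain amino acids: Glul, Asns, Bcat1, Bcat2, Got1, Got2, Gpt2 and Glud1. The members were taken by gene name from the table of counts, which held all 8 among its 17340 genes, and all 8 passed the filter on low counts. RNA-seq was performed on KPC cells, a mouse pancreatic cancer line of C57BL/6 background, in 4 groups of 3 libraries. Cells were treated for 48 h with 1 µM JQ1, 1 µM I-BET151 or 1 µM ITF2357, and the fourth group was the control, which the labels call untreated in one field and PBS in another. JQ1 and I-BET151 occupy the bromodomains with which BET proteins bind acetylated histones; JQ1 is built on a thienotriazolodiazepine scaffold and I-BET151 carries a dimethylisoxazole. ITF2357 (givinostat) inhibits histone deacetylases. The labels give no allele of the line, and do not say whether the line is a single clone or which solvent carried the compounds.

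Glutamine synthetase, the product of Glul, joins ammonia to glutamate, and asparagine synthetase, the product of Asns, passes the amide nitrogen of glutamine to aspartate. Glutamate dehydrogenase (Glud1) releases ammonia from glutamate in mitochondria, whereas transaminases hand the amino group of glutamate on to keto acids: Gpt2 to pyruvate, Got1 and Got2 to oxaloacetate. Bcat1 in the cytosol and Bcat2 in mitochondria carry out the reversible first step of leucine, isoleucine and valine breakdown, with glutamate as the amino partner. Asns is a known target of the transcription factor ATF4, Bcat1 is a known target of MYC in several tumours, and pancreatic cancer cells are known for their use of glutamine through Got1 and Got2.

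Asns, Gpt2, Got1 and Bcat1 are the 4 members that were lower with each of the 3 compounds (values below), so the 250 bases before their RefSeq starts are shown, from RefSeq on build GRCm38.p6 (mm10), 5′ to 3′ on the strand of the gene. Capitals mark TGATGNAA on either strand, the core of the C/EBP-ATF response element that ATF4 binds.
Asns (chr6:7693210-7693459, - strand): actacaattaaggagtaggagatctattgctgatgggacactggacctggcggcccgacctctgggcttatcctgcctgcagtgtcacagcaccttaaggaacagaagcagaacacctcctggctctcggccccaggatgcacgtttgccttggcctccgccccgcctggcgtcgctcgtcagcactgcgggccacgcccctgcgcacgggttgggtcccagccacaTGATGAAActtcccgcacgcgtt
Got1 (chr19:43524606-43524855, - strand): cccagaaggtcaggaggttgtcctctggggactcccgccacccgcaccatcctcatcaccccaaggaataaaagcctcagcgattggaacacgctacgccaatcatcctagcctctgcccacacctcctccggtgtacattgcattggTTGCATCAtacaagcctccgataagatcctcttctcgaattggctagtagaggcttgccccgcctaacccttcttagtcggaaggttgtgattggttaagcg
Gpt2 (chr8:85492326-85492575, + strand): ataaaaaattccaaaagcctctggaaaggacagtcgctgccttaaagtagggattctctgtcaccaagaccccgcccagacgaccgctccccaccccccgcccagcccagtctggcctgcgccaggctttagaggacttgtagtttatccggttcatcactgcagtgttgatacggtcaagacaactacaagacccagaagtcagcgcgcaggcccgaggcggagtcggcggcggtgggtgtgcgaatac
Bcat1, first of 2 starts (chr6:145076158-145076407, - strand): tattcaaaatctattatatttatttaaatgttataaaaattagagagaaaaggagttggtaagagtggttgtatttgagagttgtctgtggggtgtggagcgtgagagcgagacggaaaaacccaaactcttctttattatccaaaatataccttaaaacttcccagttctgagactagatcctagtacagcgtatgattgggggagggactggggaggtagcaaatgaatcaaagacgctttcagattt
The search covered windows from 250 bases before to 50 after each start, 10 windows for the 8 members, since Bcat1 and Bcat2 each had 2. The Asns match, TGATGAAA on the strand of the gene, began 23 bases before the RefSeq start. The first base of Asns in GENCODE M21 lies 45 bases further upstream, so by that annotation the match falls inside the gene. The Got1 match, TGATGCAA on the opposite strand, began 102 bases before the start. Of all 32851 windows 3.97% held TGATGNAA, and of the 13640 windows of genes with counts, 2.29% did. The E-box CACGTG, a palindrome that MYC binds and that overlaps neither match above, was found in none of the 10 windows, in 7.15% of all windows and in 9.65% of those of genes in the table. A match describes these letters and is not evidence that a factor binds there.

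On mm10, Glul spans 153899944 to 153909723 on the + strand of chromosome 1, Asns 7675169 to 7693254 on the - strand of chromosome 6 and Bcat1 144993835 to 145076184 on the - strand of chromosome 6. Bcat2 spans 45570153 to 45589711 on the + strand of chromosome 7 and Got1 43499752 to 43524605 on the - strand of chromosome 19. Got2 (95864134 to 95888547, - strand) and Gpt2 (85492576 to 85527560, + strand) lie on chromosome 8, and Glud1 spans 34310727 to 34345265 on the + strand of chromosome 14. All 8 are protein-coding genes. Teddm2 overlaps Glul on the opposite strand, and its 5 to 29 counts per library were few beside at least 3406 for Glul. Teddm2 had 0.314 CPM in control and 1.13 CPM with I-BET151 (edgeR adjusted p = 0.000108), and as no source used here gives the strand setting of the counting, reads of this pair cannot be told apart. Got2-ps1, a processed pseudogene of Got2 on chromosome 5, had 19 to 72 counts per library beside at least 2459 for Got2.

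Library totals ranged from 21 to 31.2 M counts. Counts of replicate pairs differed by more than sampling noise (chi-square per degree of freedom 1.62 to 5.20). The ITF2357 pairs differed most (2.69, 3.93 and 5.20), and those of the other groups had at most 2.32. The 2 highest values both involve ITF2357 replicate 3. Separate cultures are not named in the labels, so the p-values reflect the spread among these libraries alone, which may be technical. The summed level of 8 epithelial and ductal markers was 3220 to 3324 CPM (counts scaled to library size) in control libraries, 3434 to 3505 CPM with JQ1, 4749 to 4792 CPM with I-BET151 and 5015 to 5239 CPM with ITF2357. Among them Krt8 and Krt19 were abundant (831 and 486 CPM in control) and Epcam was near the floor (1.75 CPM). Sox9 (59.8 to 45.2 CPM) and Krt18 (840 to 788 CPM) had lower means with JQ1 than in control, and Sox9 also with ITF2357 (52.4 CPM). The other means with JQ1 and ITF2357, and all 8 with I-BET151, were higher than in control. The 3 of 6 fibroblast markers measured summed to 21.8 to 22.8 CPM in control, 20.8 to 26.5 CPM with JQ1, 6.75 to 7.72 CPM with I-BET151 and 20.2 to 23.1 CPM with ITF2357. With ITF2357 this sum holds opposite changes of the group means. Col1a1 went from 14.6 to 11.3 CPM and Pdgfrb from 1.64 to 0.495 CPM, whereas Pdgfra went from 6.13 to 9.65 CPM. The 2 of 4 endothelial markers measured summed to 3.86 to 4.37 CPM in control, 3.28 to 3.79 CPM with JQ1, 0.844 to 0.971 CPM with I-BET151 and 0.951 to 1.45 CPM with ITF2357. Of 6 leukocyte markers only Cd68 was measured (4.33 to 7.10 CPM in the group means), and of 7 acinar markers only Cela1, at 3.86 to 4.55 CPM in control, 0.276 to 0.633 CPM with I-BET151 and 5.94 to 7.04 CPM with ITF2357. The part of these markers in the results below was not tested.

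Glul rose with every compound, and Asns, Gpt2, Got1 and Bcat1 fell with every compound. Changes were largest with I-BET151 for Glul, Asns, Got1 and Bcat1, and with ITF2357 for Gpt2. Got2 fell with JQ1 and I-BET151 and rose with ITF2357, and Glud1 rose with I-BET151 and ITF2357. Bcat2 rose with ITF2357 and fell with I-BET151, a call that was lost without I-BET151 replicate 2 or 3. A gene was called changed at an adjusted p under 0.05 in edgeR's quasi-likelihood test over all 17340 genes. With JQ1, 1 member rose, 5 fell and 2 did not pass, against 24.8% of all genes called (12.5% higher, 12.3% lower). Libraries of the groups did not overlap for 6 of the 8, against 38.9% of all genes. With I-BET151, 2 rose and 6 fell, against 63.1% of all genes called (30.5% higher, 32.6% lower), and the libraries of all 8 did not overlap, against 67.5% of all genes. With ITF2357, 4 rose and 4 fell, against 54.0% of all genes called (27.6% higher, 26.4% lower), and again none of the 8 overlapped, against 58.1% of all genes. With library totals in place of TMM scaling factors, 3657 of 11092 I-BET151 calls were higher genes in place of 5297 of 10945, and the median over all genes was -0.19 in place of -0.03 on the log2 scale. Under either scaling the 8 members kept their direction in all 3 comparisons with control. The 3 comparisons share the control libraries. In bulk RNA, fewer cells of a kind and less RNA per cell cannot be told apart.

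**Figure D1:**
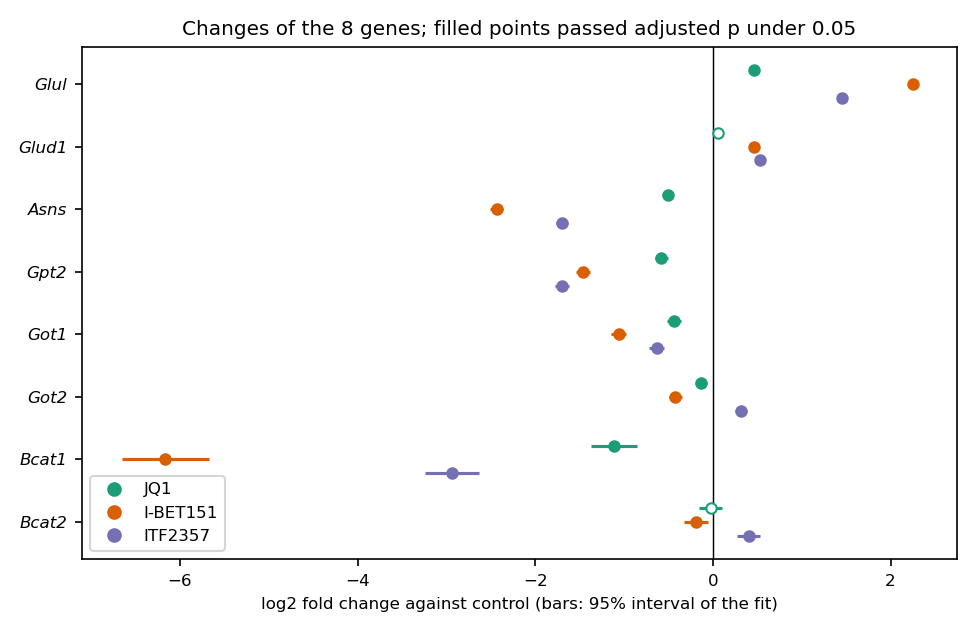
Log2 fold changes of the 8 genes against control with JQ1, I-BET151 and ITF2357 (n = 3 libraries per group); bars are 95% intervals of the edgeR fit, hidden where shorter than the point. Filled points passed the test, and Bcat1 with I-BET151, at -6.16, lies farthest from 0.

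Glul, glutamine synthetase, had 151, 150.5 and 151 CPM in the control libraries, 209, 209 and 208 CPM with JQ1, 715, 722 and 717 CPM with I-BET151 and 423, 416 and 404 CPM with ITF2357 (CPM scaled with TMM factors). The groups did not overlap, and the order was control, JQ1, ITF2357, I-BET151 from low to high. The level of Glul rose from 151 ± 0.496 to 718 ± 3.41 CPM with I-BET151 (SD, n = 3), or 4.76-fold, which is 2.25 ± 0.02 SE in log2 units (edgeR adjusted p = 5.59e-37). It was the 58th largest rise among 17340 genes in that comparison. With ITF2357 the log2 change was 1.46 ± 0.02 SE (edgeR adjusted p = 2.60e-31) and with JQ1 0.47 ± 0.03 SE (edgeR adjusted p = 8.68e-16). Per length, Glul went from 39.9 ± 0.131 reads per kilobase, scaled to depth as CPM are (RPKM), in control to 190 ± 0.902 RPKM with I-BET151. Its rank by RPKM among all genes moved from 925 to 109.

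Glud1, glutamate dehydrogenase, had 182, 189 and 187 CPM in control libraries, 188, 200.5 and 191 CPM with JQ1, 256, 256 and 255 CPM with I-BET151 and 275, 266 and 264 CPM with ITF2357. Control and JQ1 libraries overlapped, and both stood below the I-BET151 and ITF2357 libraries. The rise was 0.46 ± 0.03 SE on the log2 scale with I-BET151 (edgeR adjusted p = 5.04e-16) and 0.53 ± 0.03 SE with ITF2357 (edgeR adjusted p = 1.66e-17). With library totals the I-BET151 value was 0.30 (edgeR adjusted p = 1.79e-11). With JQ1 the value was 0.05 (95% interval -0.00354 to 0.113, edgeR adjusted p = 0.179), which did not pass, and with upper quartile factors it was 0.08 and passed (edgeR adjusted p = 0.0473).

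Asns, which makes asparagine from aspartate and glutamine, had 231, 238 and 239 CPM in control libraries, 167, 167 and 163 CPM with JQ1, 41.2, 44.5 and 45.2 CPM with I-BET151 and 71.0, 73.7 and 73.0 CPM with ITF2357. The groups did not overlap and stood in the reverse of the order of Glul. The level of Asns fell from 236 ± 3.91 to 43.6 ± 2.13 CPM with I-BET151 (SD, n = 3), or 5.40-fold, which is -2.43 ± 0.04 SE in log2 units (edgeR adjusted p = 1.26e-33). With ITF2357 it was 3.25-fold lower, -1.70 ± 0.03 SE (edgeR adjusted p = 8.95e-30), the 193rd largest fall of 17340 genes. With JQ1 it was -0.51 ± 0.03 SE (edgeR adjusted p = 8.70e-15). By RPKM, Asns was the most abundant of the 8 in control (86.2 ± 1.43) and in JQ1 libraries (60.6 ± 0.978). In I-BET151 libraries, at 16.0 ± 0.779 RPKM, it stood below Glul, Glud1, Got2 and Got1.

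**Figure D2:**
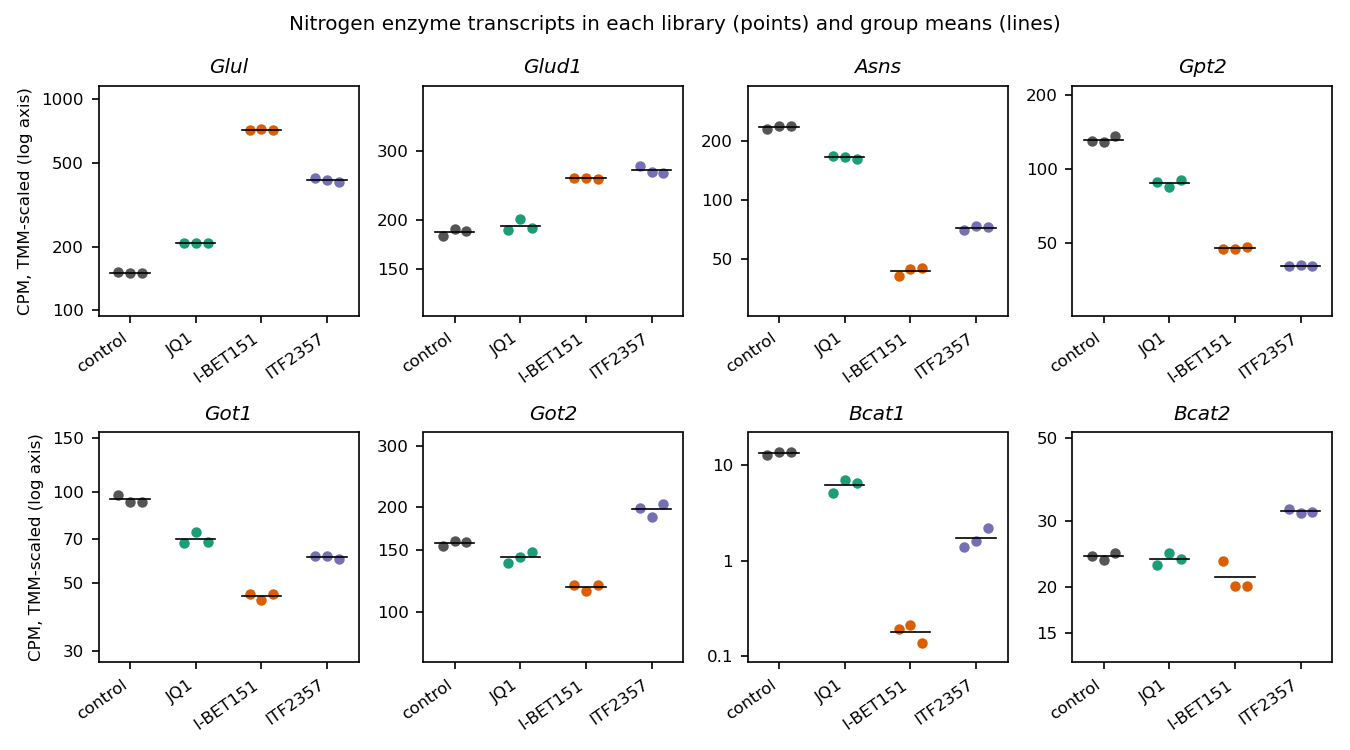
CPM (log axis, TMM-scaled) of each member in the 12 libraries; points are libraries and lines are group means of 3. The axes differ between panels: Glul spans 150.5 to 722 CPM and Bcat1 0.138 to 13.8 CPM.

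Gpt2, the mitochondrial alanine transaminase, had 130, 129 and 136 CPM in control libraries, 88.6, 84.5 and 90.2 CPM with JQ1, 47.2, 47.1 and 48.4 CPM with I-BET151 and 40.5, 40.6 and 40.4 CPM with ITF2357. The groups did not overlap, and Gpt2 was the only member lowest in ITF2357 libraries. It fell 3.24-fold with ITF2357, from 131 ± 3.67 to 40.5 ± 0.0597 CPM (SD, n = 3), or -1.70 ± 0.04 SE on the log2 scale (edgeR adjusted p = 8.10e-28). With I-BET151 the log2 change was -1.47 ± 0.04 SE (edgeR adjusted p = 2.18e-26) and with JQ1 -0.58 ± 0.04 SE (edgeR adjusted p = 1.51e-14).

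Got1, the cytosolic aspartate transaminase, had 97.8, 92.6 and 92.7 CPM in control libraries, 67.6, 73.5 and 68.1 CPM with JQ1, 45.9, 43.9 and 46.1 CPM with I-BET151 and 61.3, 61.4 and 59.8 CPM with ITF2357. The groups did not overlap and fell in the order control, JQ1, ITF2357, I-BET151. The log2 fold change was -0.44 ± 0.04 SE with JQ1, -1.06 ± 0.04 SE for I-BET151 and -0.63 ± 0.04 SE for ITF2357 (edgeR adjusted p = 1.66e-10, 3.92e-21 and 2.28e-15).

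Got2, the mitochondrial counterpart of Got1, had 154, 159 and 159 CPM in control libraries, 138, 144 and 148 CPM with JQ1, 119, 114 and 119 CPM with I-BET151 and 198, 187 and 204 CPM with ITF2357. The groups did not overlap, with I-BET151 lowest and ITF2357 highest. Got2 fell by 0.14 ± 0.03 SE on the log2 scale with JQ1 (edgeR adjusted p = 0.00220) and by 0.42 ± 0.03 SE with I-BET151 (edgeR adjusted p = 1.02e-12). It rose by 0.32 ± 0.03 SE with ITF2357 (edgeR adjusted p = 3.26e-10).

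Bcat1, the cytosolic branched-chain transaminase, had 305, 310 and 319 counts in control libraries, 153, 151 and 175 counts with JQ1, 4, 5 and 3 counts with I-BET151 and 44, 38 and 67 counts with ITF2357. In scaled units the control mean was 13.4 ± 0.614 CPM, against 6.22 ± 0.986 CPM with JQ1, 0.181 ± 0.0383 CPM with I-BET151 and 1.74 ± 0.423 CPM with ITF2357 (SD, n = 3). The groups did not overlap, and I-BET151 libraries were nearly devoid of Bcat1 reads. Bcat1 had the 27th, 30th and 48th largest fall among 17340 genes with I-BET151, ITF2357 and JQ1, with log2 fold changes of -6.16 ± 0.24 SE, -2.94 ± 0.15 SE and -1.11 ± 0.13 SE (edgeR adjusted p = 1.35e-21, 7.09e-18 and 1.97e-08). From counts summed over the group, 12 with I-BET151 against 934 in control, Bcat1 was 73.6-fold lower. The exact 95% interval was 41.9 to 143-fold and covers counting error only.

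Bcat2, the mitochondrial branched-chain transaminase, had 24.1, 23.5 and 24.6 CPM in control libraries, 22.9, 24.6 and 23.7 CPM with JQ1, 23.4, 20.1 and 20.04 CPM with I-BET151 and 32.3, 31.4 and 31.7 CPM with ITF2357. The ITF2357 libraries stood above all others, and the control and JQ1 libraries overlapped. Bcat2 rose by 0.40 ± 0.06 SE on the log2 scale with ITF2357 (edgeR adjusted p = 1.20e-06). With JQ1 the value was -0.02 (95% interval -0.15 to 0.11, edgeR adjusted p = 0.853), which did not pass. With I-BET151 it was -0.19 ± 0.07 SE (edgeR adjusted p = 0.0146). This call did not hold without I-BET151 replicate 2 (edgeR adjusted p = 0.0825) or replicate 3 (edgeR adjusted p = 0.0827). With library totals it was -0.35 (edgeR adjusted p = 2.64e-05).

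The cytosolic and mitochondrial isozymes were compared within each library as counts per kb, a ratio that does not depend on library scaling. Bcat1 per Bcat2 was 0.220, 0.243 and 0.235 in control libraries and 0.0933, 0.119 and 0.116 with JQ1. It was 0.00347, 0.00439 and 0.00288 with I-BET151 and 0.0180, 0.0215 and 0.0292 with ITF2357. Thus Bcat2 was the more abundant transcript per kb in every library, by 4.30 times in control and by 279 times with I-BET151, taken from the group mean of the ratio. These multiples depend on the gene lengths used, 9322 bases for Bcat1 and 3900 for Bcat2. Without division by length, the control means were 13.4 CPM for Bcat1 and 24.1 CPM for Bcat2. The I-BET151 multiple rests on 12 Bcat1 counts summed over the group, so counting error limits it. Got1 per Got2 was 1.20, 1.10 and 1.11 in control libraries and 0.931, 0.972 and 0.872 with JQ1. It was 0.731, 0.728 and 0.733 with I-BET151 and 0.587, 0.625 and 0.556 with ITF2357. Per kb, Got1 stood above Got2 in control libraries and below it in all treated libraries. The order in control rests on the gene lengths used, 2539 bases for Got1 and 4824 for Got2. Without division by length, Got1 stood below Got2 in control libraries as well (means of 94.4 and 158 CPM). Changes of the ratio between groups do not depend on these lengths. Against control, the log2 ratio of Got1 to Got2 changed by -0.30 (JQ1), -0.64 (I-BET151) and -0.95 (ITF2357), and that of Bcat1 to Bcat2 by -1.10, -6.04 and -3.37. Between I-BET151 and JQ1 the differences were -4.95 for the Bcat ratio and -0.34 for the Got ratio. In these 8 comparisons the groups did not overlap, and each had p = 0.1 in a two-sided exact permutation test, the smallest p that 3 against 3 libraries allow.

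**Figure D3:**
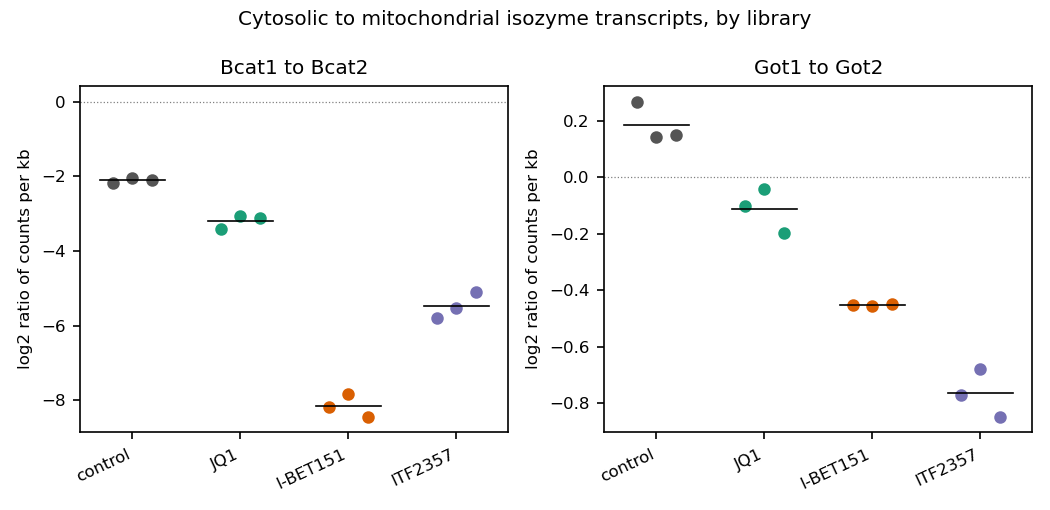
Log2 ratio of cytosolic to mitochondrial isozyme transcripts, in counts per kb, in the 12 libraries (points) with group means of 3 (lines). The dotted line marks equal counts per kb, which depends on the gene lengths used. The Got1 to Got2 ratio lies above 0 in control libraries only, and the Bcat1 to Bcat2 ratio is lowest with I-BET151.

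The BET inhibitors, which differ in chemical scaffold, were compared at the same dose and time. All 8 members differed between I-BET151 and JQ1, 2 higher and 6 lower with I-BET151, against 60.4% of all genes called (29.8% higher, 30.7% lower). Libraries did not overlap for 7 members, against 65.6% of all genes. Glul was 3.44-fold higher with I-BET151 than with JQ1 (1.78 ± 0.02 SE, edgeR adjusted p = 1.33e-34), and Glud1 was higher by 0.41 ± 0.03 SE (edgeR adjusted p = 1.50e-14). Asns was lower by a log2 difference of -1.92 ± 0.04 SE, Bcat1 by -5.05 ± 0.27 SE, Gpt2 by -0.89 ± 0.04 SE, Got1 by -0.62 ± 0.04 SE and Got2 by -0.28 ± 0.03 SE (edgeR adjusted p from 2.16e-30 for Asns to 1.11e-08 for Got2). For Glul, Asns, Gpt2, Got1, Got2 and Bcat1, which passed with both, JQ1 and I-BET151 moved the gene in the same direction, and the change was larger with I-BET151. The Bcat2 difference was -0.16 (95% interval -0.30 to -0.03, edgeR adjusted p = 0.0311), with overlapping libraries. That call was lost without JQ1 replicate 2 (edgeR adjusted p = 0.103) or 3 (0.0697), without I-BET151 replicate 2 (0.154) or 3 (0.157), and in DESeq2 (adjusted p = 0.0510). With library totals the Glud1 difference was 0.25 and the Bcat2 difference -0.32, the Got2 difference was -0.44, and the share of higher genes among all calls was 31.1% in place of 49.3%.

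ITF2357, which acts on another class of target, was set beside each BET inhibitor at the same dose. Against JQ1, 4 members were higher and 4 lower with ITF2357, against 48.6% of all genes called (25.4% higher, 23.2% lower). Libraries did not overlap for the 8, against 53.7% of all genes. With upper quartile factors the share of higher genes among all calls was 41.8% in place of 52.3%. Glul (0.99 ± 0.02 SE), Glud1 (0.48 ± 0.03 SE), Got2 (0.46 ± 0.03 SE) and Bcat2 (0.42 ± 0.06 SE) were higher than with JQ1. Bcat1 (-1.82 ± 0.16 SE), Asns (-1.19 ± 0.03 SE), Gpt2 (-1.12 ± 0.04 SE) and Got1 (-0.19 ± 0.04 SE) were lower, with an edgeR adjusted p of at most 0.000163 for the 8. Against I-BET151, 6 members were higher and 2 lower with ITF2357, against 62.8% of all genes called (31.9% higher, 30.9% lower). Libraries did not overlap for the 8, against 64.6% of all genes. With library totals the share of higher genes among all calls was 65.5% in place of 50.8%. Glul was lower than with I-BET151 by a log2 difference of -0.79 ± 0.02 SE (edgeR adjusted p = 5.03e-25), and Asns was higher by 0.73 ± 0.04 SE (edgeR adjusted p = 8.45e-18). Bcat1 was higher by 3.23 ± 0.34 SE, Got2 by 0.74 ± 0.03 SE, Bcat2 by 0.59 ± 0.06 SE and Got1 by 0.43 ± 0.04 SE (edgeR adjusted p from 1.81e-19 for Got2 to 6.67e-10 for Bcat2). Gpt2 was lower by a log2 difference of -0.23 ± 0.04 SE (edgeR adjusted p = 1.49e-05), which became -0.10 with library totals (edgeR adjusted p = 0.0474). The Glud1 difference was 0.07 (95% interval 0.01 to 0.12, edgeR adjusted p = 0.0309), and 0.20 with library totals. This Glud1 call was lost without any 1 of the 3 I-BET151 libraries (edgeR adjusted p = 0.0565, 0.0614 and 0.0782), without ITF2357 replicate 1 (0.164) and with upper quartile factors (0.0633).

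Per length, the order of the 8 genes changed between groups. In control libraries it ran Asns (86.2 RPKM), Glud1 (44.1), Glul (39.9), Got1 (37.2), Got2 (32.7), Gpt2 (23.3), Bcat2 (6.18) and Bcat1 (1.44 RPKM). In I-BET151 libraries it ran Glul (190 RPKM), Glud1 (60.7), Got2 (24.4), Got1 (17.8), Asns (16.0), Gpt2 (8.43), Bcat2 (5.43) and Bcat1 (0.0194 RPKM). In ITF2357 libraries it ran Glul (110 RPKM), Glud1 (63.7), Got2 (40.7), Asns (26.5), Got1 (24.0), Bcat2 (8.15), Gpt2 (7.18) and Bcat1 (0.187 RPKM). In JQ1 libraries Asns (60.6 RPKM) and Glul (55.2 RPKM) led, followed by Glud1 (45.9), Got2 (29.7), Got1 (27.5), Gpt2 (15.6), Bcat2 (6.09) and Bcat1 (0.667 RPKM). Libraries of neighbouring genes in these orders did not overlap, except those of Got2 and Got1 with JQ1.

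The genes whose log2 CPM over the 12 libraries was most like that of each member are given with Pearson's r. This is a description across 11269 other genes that averaged 2 or more in log2 CPM. That number holds for every member but Bcat1, which averaged below 2 and so was not itself among the genes compared. The libraries form 4 groups, so r mostly reflects the 4 group levels. Asns was most like Dusp5, a MAPK phosphatase gene (r = 0.998), Mast4 (0.998) and Pck2, the mitochondrial PEP carboxykinase gene (0.997). Bcat1 was most like Aldh18a1, which starts proline synthesis from glutamate (0.996), Myc (0.995) and Shmt2, the mitochondrial serine hydroxymethyltransferase gene (0.995). With JQ1, I-BET151 and ITF2357 the log2 fold changes were -0.32, -1.56 and -0.72 for Myc and -0.58, -2.40 and -1.32 for Shmt2. For Glul the closest were Ptprj, Cacul1 and Pygb, brain glycogen phosphorylase (each 0.998), and for Gpt2 they were Atf6, an endoplasmic reticulum stress sensor gene (0.997), Cdr2l and Kcnq1ot1 (both 0.995). For Got1 they were Pop1 (0.994), Snhg1 (0.993) and 1110038B12Rik (0.990), and for Glud1 Lman2 (0.996), Sod1 (0.996) and Pkp4 (0.995). For Got2 they were AI506816 (0.990), Pitrm1 (0.990) and Gm8210 (0.988), and for Bcat2 Hist1h4f (0.980), Emp3 (0.975) and Hist2h3b (0.975), the first and last of which are histone genes with near-identical copies whose counts are uncertain.

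Genes around the 8 enzymes were described in 8 lists, by their calls in the same fit and their median log2 fold change, beside medians of all genes of 0.00295 (JQ1), -0.03 (I-BET151) and -0.01 (ITF2357). The calls of every list stand beside 24.8% of all genes called with JQ1 (12.5% higher, 12.3% lower). These shares were 63.1% with I-BET151 (30.5% higher, 32.6% lower) and 54.0% with ITF2357 (27.6% higher, 26.4% lower). No list was tested as a set. For genes named from these lists, values after fell, rose or changed are log2 fold changes against control, and a compound not mentioned is one with which the gene did not pass the test. Among 9 amino acid response regulators, the list that holds Atf4, 8 fell and 0 rose with JQ1 (median -0.43), 6 fell and 3 rose with I-BET151 (median -0.82; 6 fell and 1 rose with library totals) and 9 fell with ITF2357 (median -1.12). Atf4 itself went from 364 CPM in control to 283 CPM with JQ1, 159 CPM with I-BET151 and 167 CPM with ITF2357. Trib3, a pseudokinase gene induced by ATF4, was lower by -0.94 ± 0.06 SE, -4.78 ± 0.09 SE and -3.81 ± 0.07 SE with JQ1, I-BET151 and ITF2357, and Atf5 by -0.67 ± 0.06 SE, -3.16 ± 0.08 SE and -2.97 ± 0.08 SE. Ddit3, which encodes CHOP, changed by -0.998 ± 0.08 SE with JQ1, -0.82 ± 0.08 SE with I-BET151 and -2.56 ± 0.09 SE with ITF2357. Atf3, a stress-induced factor gene, rose by 0.66 ± 0.06 SE with I-BET151, whereas it fell by 0.26 ± 0.07 SE with JQ1 and fell by 0.82 ± 0.07 SE with ITF2357.

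Among 8 measured carriers of glutamine and branched-chain amino acids, 6 fell and 1 rose with JQ1 (median -0.26), 5 fell and 1 rose with I-BET151 (median -0.77) and 5 fell and 2 rose with ITF2357 (median -0.76). Slc7a5, the leucine carrier LAT1, went from 148 to 99.7, 33.9 and 58.4 CPM with JQ1, I-BET151 and ITF2357. Slc1a5, the glutamine carrier ASCT2, went from 80.5 to 51.4, 25.1 and 23.8 CPM in the same order. Slc3a2, the partner chain of LAT1, had log2 fold changes of -0.49 ± 0.03 SE, -1.15 ± 0.03 SE and -0.98 ± 0.03 SE. Slc43a2, another carrier of branched-chain amino acids, rose by 0.35 ± 0.06 SE with JQ1 and by 0.38 ± 0.06 SE with ITF2357. Slc25a44, a mitochondrial carrier of branched-chain amino acids, rose by 0.40 ± 0.04 SE with I-BET151 and rose by 0.10 ± 0.04 SE with ITF2357, and fell by 0.14 ± 0.04 SE with JQ1.

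Downstream of Bcat1 and Bcat2, 23 genes of branched-chain keto acid breakdown were measured. With I-BET151 16 rose, 3 fell and 4 did not pass (median 0.38). With ITF2357 11 rose, 2 fell and 10 did not pass (median 0.14), and with JQ1 2 rose, 3 fell and 18 did not pass (median -0.00307). Over all genes, 63.1% were called with I-BET151, 54.0% with ITF2357 and 24.8% with JQ1. With library totals, 14 rose and 6 fell with I-BET151 (median 0.22). Pccb, a subunit of propionyl-CoA carboxylase, went from 6.09 CPM to 17.2 CPM with I-BET151 and 13.4 CPM with ITF2357. Aldh6a1, which acts in valine breakdown, rose by 1.22 ± 0.06 SE with I-BET151, 0.41 ± 0.06 SE with ITF2357 and 0.30 ± 0.06 SE with JQ1, and Acat1 rose by 1.07 ± 0.05 SE with I-BET151, 1.10 ± 0.05 SE with ITF2357 and 0.18 ± 0.06 SE with JQ1. Mmut, methylmalonyl-CoA mutase, rose by 0.46 ± 0.05 SE with I-BET151 and 0.52 ± 0.05 SE with ITF2357. Bckdhb, a subunit of the branched-chain keto acid dehydrogenase, fell by 0.41 ± 0.09 SE with I-BET151 and rose by 0.25 ± 0.08 SE with ITF2357. Dbt, another subunit, fell by 0.22 ± 0.06 SE with JQ1. Ppm1k, the phosphatase of that complex, rose by 0.49 ± 0.09 SE with I-BET151 and fell by 0.26 ± 0.09 SE with ITF2357. The rises counted above include Bckdk, the kinase that inactivates the complex. Bckdk rose by 0.16 ± 0.05 SE with I-BET151 and 0.35 ± 0.05 SE with ITF2357.

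**Figure D4:**
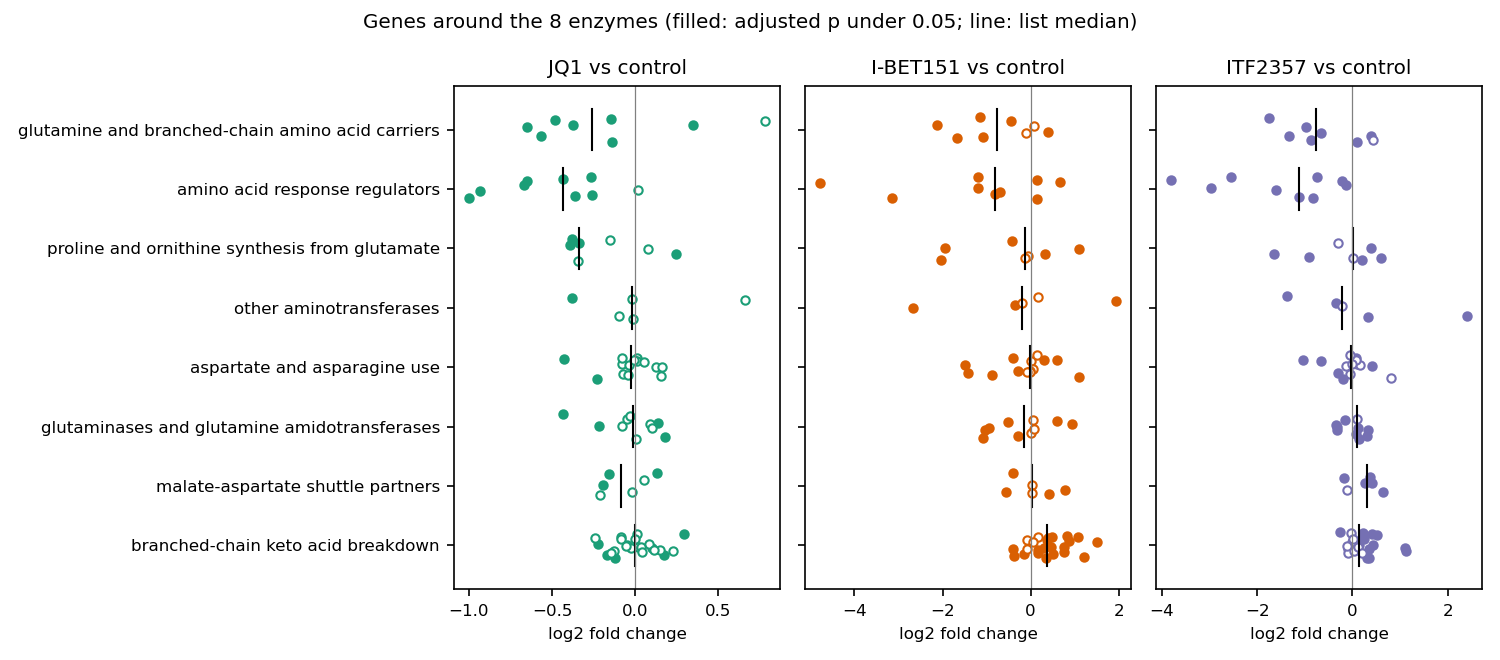
Log2 fold changes of single genes in 8 lists around the enzymes, against control, with JQ1, I-BET151 and ITF2357; filled points passed the test, black lines are list medians, and the horizontal axes differ between panels. The medians of the carrier and amino acid response lists lie below 0 in all 3 panels, and that of keto acid breakdown lies at 0.38 with I-BET151.

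In the list for proline and ornithine synthesis from glutamate, 3 of 7 genes fell and 1 rose with JQ1 (median -0.34), 3 fell and 2 rose with I-BET151 (median -0.13) and 2 fell and 3 rose with ITF2357 (median 0.01). The 7 include Prodh and Aldh4a1, which act in proline breakdown, so the counts and medians are not of synthesis alone. Aldh18a1 went from 244 to 187, 59.3 and 129 CPM with JQ1, I-BET151 and ITF2357. Pycr1, which completes proline synthesis in mitochondria, had log2 fold changes of -0.39 ± 0.08 SE, -1.93 ± 0.10 SE and -1.64 ± 0.09 SE. Oat, ornithine aminotransferase, rose by 0.24 ± 0.05 SE with JQ1 and by 0.60 ± 0.05 SE with ITF2357. The breakdown gene Aldh4a1 rose by 1.10 ± 0.13 SE with I-BET151 and 0.40 ± 0.13 SE with ITF2357. Pycrl, a synthesis gene of the list, also rose, by 0.33 ± 0.07 SE with I-BET151 and 0.19 ± 0.07 SE with ITF2357. Prodh, at 0.530 CPM in control, did not pass the test with any compound. Of 5 other aminotransferases measured, 1 fell with JQ1, 2 fell and 1 rose with I-BET151, and 2 fell and 2 rose with ITF2357 (medians -0.02, -0.19 and -0.21). Psat1, the phosphoserine aminotransferase gene, went from 289 to 222, 45.7 and 112 CPM with JQ1, I-BET151 and ITF2357. Gpt, the cytosolic counterpart of Gpt2, fell by 0.37 ± 0.12 SE with I-BET151 and by 0.36 ± 0.12 SE with ITF2357. Abat, GABA transaminase, rose from 0.242 CPM in control to 0.942 CPM with I-BET151 and 1.33 CPM with ITF2357.

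Glutaminases and glutamine amidotransferases were divided. Of 10 measured, 2 rose and 2 fell with JQ1, 2 rose and 5 fell with I-BET151, and 5 rose and 4 fell with ITF2357 (medians -0.01, -0.15 and 0.09). These calls, and those for aspartate and asparagine below, stand beside 24.8%, 63.1% and 54.0% of all genes in the same order. Cad, which starts pyrimidine synthesis from glutamine, fell by 0.43 ± 0.04 SE with JQ1, fell by 1.09 ± 0.04 SE with I-BET151 and fell by 0.16 ± 0.04 SE with ITF2357. Ppat, which starts purine synthesis, rose by 0.95 ± 0.04 SE with I-BET151. The glutaminase gene Gls2 fell by 1.03 ± 0.11 SE with I-BET151 and rose by 0.31 ± 0.10 SE with ITF2357. Pfas, also in purine synthesis, fell by 0.94 ± 0.04 SE with I-BET151, and it fell by 0.22 ± 0.04 SE with JQ1 and fell by 0.32 ± 0.04 SE with ITF2357. Nadsyn1, which makes NAD, fell by 0.51 ± 0.11 SE with I-BET151 and fell by 0.35 ± 0.11 SE with ITF2357. Gfpt1, of the hexosamine pathway, rose by 0.59 ± 0.03 SE with I-BET151, 0.32 ± 0.03 SE with ITF2357 and 0.14 ± 0.03 SE with JQ1. Ctps2, a CTP synthase gene, rose by 0.18 ± 0.05 SE with JQ1 and 0.11 ± 0.05 SE with ITF2357. Of 14 genes listed under aspartate and asparagine use, 2 fell and 0 rose with JQ1, 5 fell and 3 rose with I-BET151, and 4 fell and 2 rose with ITF2357 (medians -0.02, -0.01 and -0.03). The I-BET151 rises include Nit1 (0.59 ± 0.07 SE), an amidase gene whose enzyme acts on deaminated glutathione. Nars, the asparaginyl-tRNA synthetase gene, went from 303 to 225, 107 and 147 CPM with JQ1, I-BET151 and ITF2357. Adsl, adenylosuccinate lyase, fell by 0.23 ± 0.05 SE with JQ1 and fell by 0.39 ± 0.05 SE with I-BET151. Adssl1, an adenylosuccinate synthase gene, fell by 0.29 ± 0.07 SE with I-BET151 and fell by 0.67 ± 0.07 SE with ITF2357, and Aspa, aspartoacylase, rose by 1.10 ± 0.07 SE with I-BET151. Ass1 had 0.138 CPM with I-BET151 and 0.373 CPM in control (edgeR adjusted p = 0.0454).

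Of 6 genes listed as malate-aspartate shuttle partners of Got1 and Got2, 1 rose and 2 fell with JQ1, 2 rose and 2 fell with I-BET151, and 4 rose and 1 fell with ITF2357 (medians -0.09, 0.02 and 0.32). Mdh1, the cytosolic malate dehydrogenase gene, went from 62.1 to 68.0, 106 and 96.8 CPM with JQ1, I-BET151 and ITF2357. Mdh2, its mitochondrial counterpart, fell by 0.16 ± 0.03 SE with JQ1 and rose by 0.37 ± 0.03 SE with ITF2357. The carrier gene Slc25a11 rose by 0.41 ± 0.05 SE with I-BET151 and 0.26 ± 0.05 SE with ITF2357, and Slc25a13 rose by 0.40 ± 0.05 SE with ITF2357. Slc25a22, a mitochondrial glutamate carrier that is counted in the list but is not part of the shuttle, fell by 0.55 ± 0.09 SE with I-BET151. Slc25a12 fell by 0.19 ± 0.06 SE with JQ1, fell by 0.39 ± 0.06 SE with I-BET151 and fell by 0.18 ± 0.06 SE with ITF2357.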

How the data were processed

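RNA was sequenced as paired-end reads from 12 libraries, 3 in each of 4 groups. Per the submitters' processing notes, the tools were bcl2fastq, STAR 2.7.2a, featureCounts from Subread 2.0.1 and edgeR 3.38.4 on build mm10; the annotation release, strand setting and gene filter are not stated in any source used here. The deposited values were raw gene counts, log2 CPM and log2 RPKM per library, log2 fold changes and p-values with false discovery rates. Only the counts entered the fits; gene lengths from the table gave RPKM. In the authors' deposited table, a rate of 0.05 is passed by 6, 8 and 8 members with JQ1, I-BET151 and ITF2357.

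From the counts, edgeR 4.0.16 (R 4.3.3) fitted all 12 libraries with TMM factors and the quasi-likelihood test, with Benjamini-Hochberg adjustment over 17340 genes in each of 6 comparisons; filterByExpr removed 0 genes. CPM are scaled with TMM factors. Isozyme ratios were tested by exact permutation. The code was tested on simulated counts. Alternatives were DESeq2 1.42.0, a likelihood ratio test, other scaling factors and filters, a replicate block and leaving out each library. Coordinates came from GENCODE M21, matched by gene ID. The members, lists and named-gene rule were chosen with earlier results of these data known. Named from each list were up to 3 called genes with the largest change against control and the largest opposite change. For each member the 3 genes with the highest Pearson's r over log2 CPM with a prior count of 2 were named. Atf4, Teddm2 and Pycrl are named beside them because a result refers to them, and Prodh, Nit1 and Bckdk because their roles differ from the name of their list. A gene named from a list is given in each comparison with control that called it. Replicate numbers did not pair the libraries. Markers and list genes without a row are not analysed here. Some genes that the rule names are not reported here.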

Additional observations from a re-analysis of the deposited data

How the results depend on the processing

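Of 960 values of the members, 48 under each of 20 alternatives, 946 kept their direction and their side of the threshold. The 1 that reversed was Bcat2 with JQ1, not called, at 0.00375 without JQ1 replicate 1; without single libraries its log2 fold change ranged from -0.0473 to 0.00375. The 12 calls lost and the 1 gained concern Bcat2 and Glud1 and are given with those genes; the cause was not tested. In no comparison did the total of called genes, over all genes or over the members, move by over 1.5 times. With library totals, genes called higher with I-BET151 than with JQ1 went from 5162 to 3288. Same-numbered libraries did not deviate together (r from -0.152 to 0.0622 over 18 pairs), and 0 of 12 libraries correlated best with its own number. With a replicate block, called genes numbered 4141, 10865 and 9247 with JQ1, I-BET151 and ITF2357 against control, in place of 4308, 10945 and 9356, and the members called were as many as without the block. With library totals, glutaminases and amidotransferases called between ITF2357 and I-BET151 went from 6 to 10, and other aminotransferases between I-BET151 and JQ1 from 2 to 4. Bcat1 rests on 3 to 5 counts per library with I-BET151, so counting error limits its level there.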
